A study of Mus musculus with 4 samples.

Results

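The regions described here are CpG-dense windows that lie away from annotated promoters in the mouse genome. Each autosome was divided into fixed windows of 1000 bp, and a window was taken when it overlapped no promoter and held at least 20 qualified CpG sites. A promoter was the stretch from 1000 bp before to 500 bp after any transcription start site (TSS) of the GENCODE basic annotation of GRCm38/mm10. A CpG site is a cytosine followed by a guanine, its strands were counted apart, and it qualified when at least 20 reads covered it in each of the 4 tumors. The rule found 1978 windows among the 73196 autosomal windows that held at least 3 qualified sites, and it used no methylation value.

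Reduced representation bisulfite sequencing (RRBS) was run on 4 tumors, grown either from an anti-PD1-resistant line or from the line it was derived from. The parental line 344SQP and its resistant derivative 344SQR are mouse lung adenocarcinoma lines that carry the p53R172HΔg/+ and KrasLA1/+ alleles. Either line was grown under the skin of the leg of syngeneic 129Sv/Ev mice, all female and 12 to 16 weeks old, with 2 tumors per line. All the mice of both groups received anti-PD1 at 10 mg/kg in 4 doses from day 4, and tumors were taken 24 h after the last dose. Untreated tumors were not sequenced, each line is a single derivation, and DNA came from whole tumors, so that a change in tumor cells and a change in the share of other cells cannot be told apart. The reference sequence is of strain C57BL/6J and not of strain 129.

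CpG islands are stretches of high CpG density, most of which mark promoters and carry little methylation in normal cells. Many others lie inside genes or between them, and such orphan islands can hold start sites that an annotation lacks, enhancers of developmental genes, or coding exons with many CpG codons. In tumors, islands often gain methylation, above all at developmental regulators silenced by Polycomb, while the CpG-poor remainder of the genome loses it.

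The files listed 116794455 and 138331886 CpG read calls in 344SQP tumors 1 and 2, and 160548303 and 174689402 in 344SQR tumors 1 and 2. The 1978 windows held 74674 qualified sites, with a mean of 112, 132, 153 and 165 reads per site in the same order of tumors, which is kept for all values below. At the coverage minimum, 1 read moves the methylation level of a site by 5 percentage points. The level of a window is the mean over its qualified sites of the percent of reads with a methylated cytosine, and differences are in percentage points, 344SQR minus 344SQP. The numbers 1 and 2 are the replicate numbers of the sample titles, and what they stand for is not recorded.

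The words "away from promoters" hold for the annotation used and less well for others. Of the 1978 windows, 486 overlapped a promoter of the comprehensive GENCODE set and 490 a promoter of RefSeq, which left 1246 windows in no promoter of any of the 3 annotations. The windows in another annotation's promoter averaged 21.0%, 26.9%, 21.1% and 25.9% methylation, and the 1246 others 37.6%, 44.4%, 38.1% and 43.2%. Windows named below without a statement on this may also overlap such a promoter.

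Most of the qualified sites lay in coding exons in 847 windows, in introns in 552, between genes in 448, in untranslated regions in 92 and in exons of noncoding transcripts in 39. The median distance from a window to the nearest TSS of any gene was 4209 bp and the largest 325422 bp. The windows had 1477 different nearest protein-coding genes and lay on all 19 autosomes, from 40 windows on chromosome 16 to 201 on chromosome 11. Most windows stood alone (1537), 198 runs joined 2 touching windows and 15 runs joined 3.

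Averaged over the 1978 windows, methylation was 31.5% and 37.9% in the 344SQP tumors and 31.8% and 36.8% in the 344SQR tumors. The line means were 34.7% ± 4.55 (SD, n = 2) for 344SQP and 34.3% ± 3.56 (SD, n = 2) for 344SQR. The difference was −0.388 points, which the spread within either line exceeded (two-sided exact permutation test, p = 1, where 2 against 2 tumors allow no p under 0.333). Leaving out 344SQP tumor 2 or 344SQR tumor 1 turned the direction, to 2.83 and 2.13 points, and the mean difference was −3.60 without 344SQP tumor 1 and −2.91 without 344SQR tumor 2. A minimum of 30 sites also turned it, to 0.135 points.

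Sparse windows outside promoters, with 3 to 19 qualified sites, showed a different order. Their 47211 windows averaged 76.2% and 75.4% in 344SQP and 71.3% and 64.8% in 344SQR, so that both resistant tumors lay below both parental tumors (difference −7.71 points, exact permutation p = 0.333, the smallest possible). The dense mean minus the sparse mean was −44.7 and −37.5 points in the parental tumors and −39.5 and −28.0 points in the resistant tumors. This gap differed between lines by 7.32 points, less than the 344SQR tumors differed from each other, and the lines overlapped (exact permutation p = 0.667). Promoter windows with at least 20 sites, 11204 in number, were lower throughout, at 6.67%, 9.27%, 6.70% and 9.11%.

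Dense and sparse windows were also set side by side at like levels. Under 5% the line difference was −0.472 points in 530 dense and −0.684 points in 1175 sparse windows, and at 90% or more −1.37 points in 216 dense and −1.91 points in 13576 sparse windows, with the lines apart in each. At 5 to 20% it was −2.32 and −4.73 points and at 20 to 40% −0.00696 and −8.02 points, with the lines overlapping in dense windows only. Dense windows with a mean level of 40 to 60% over the tumors (305 windows) had means of 38.4%, 57.0%, 42.5% and 59.2%, and sparse windows of that level (5739) had 59.0%, 56.3%, 50.1% and 39.7%. Among the dense windows of this level the tumors numbered 2 were the high ones in both lines, and among the sparse windows both parental tumors were above both resistant ones. The line difference at this level was 3.19 points in dense and −12.8 points in sparse windows, and at 60 to 80% it was 0.326 and −12.8 points. At 80 to 90% it was −4.31 points in the 90 dense and −7.64 points in the 9714 sparse windows, and there the lines were apart in the dense windows too, at 86.7% and 88.9% against 84.9% and 82.1%. Exact permutation p was 0.333, the smallest possible, where lines were apart, and from 0.667 to 1 in the dense windows of the levels between 5 and 80%, and dense and sparse windows were not tested against each other.

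Levels were split by position in genes. Windows in coding exons averaged 46.7%, 53.3%, 47.1% and 52.1%, and windows between genes 17.2%, 23.4%, 17.3% and 22.4%. Windows in introns resembled the latter, with 19.7%, 25.5%, 19.7% and 24.3%. Of the 306 windows with a mean of 80% or more, 239 were coding, and of the 898 windows under 20%, 236 were. Windows 1 to 2 kb from a TSS (563) averaged 17.01%, 23.4%, 17.5% and 23.3%, and those 5 to 50 kb away (824) averaged 39.3%, 45.0%, 39.2% and 43.0%. In none of these classes did the difference between the lines exceed the spread between tumors, with exact permutation p from 0.667 to 1.

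Many of the windows had the same level in all 4 tumors. In 475 (24.0%) every tumor was under 5%, in 179 (9.05%) every tumor was over 90%, and in 798 (40.3%) the highest and lowest tumor were less than 5 points apart. Outside chromosome 18, the windows under 5% with the most sites included that in intron 1 of Celf2, an RNA-binding regulator of splicing. Others lay in intron 1 of the noncoding Lncppara and inside the span of Kalrn but in no basic transcript. Rcc2, a regulator of chromosome condensation, held another around its exon 4, with 84 of its 131 sites in introns. Celf2 (chr2:6872001-6873000) had 150 sites, each read 39 to 312 times, at 1.37%, 1.23%, 1.53% and 1.45%. Kalrn had 136 sites (chr16:34573001-34574000) at 2.31%, 2.19%, 1.71% and 2.20%. The tumors of both lines were thus within a point of each other in these windows. They were so too in Rcc2 (chr4:140702001-140703000), at 1.27%, 0.887%, 1.24% and 1.03% over 131 sites. The windows of Celf2 and Kalrn overlapped promoters of both comprehensive GENCODE and RefSeq, and that of Rcc2 a promoter of RefSeq.

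At the other end stood the last coding exon of Zfpm1, the Gata cofactor also called Fog1, with 113 sites (chr8:122336001-122337000) at 92.9%, 92.9%, 95.5% and 94.1%. Exon 8 of Hcn2, a pacemaker channel subunit, held 87 sites (chr10:79735001-79736000) at 94.2%, 95.7%, 95.8% and 96.6%. Shroom3, an actin-binding protein of epithelial shape, held 85 sites in exon 5 (chr5:92942001-92943000) at 98.2%, 97.6%, 97.0% and 96.6%. These were the windows over 90% with the most sites, and most of their sites were coding. Next came exon 7 of Scaf1 (chr7:45007001-45008000), at 92.7%, 92.3%, 92.0% and 90.6%, and exon 21 of Sema6c, a semaphorin (chr3:95172001-95173000), at 91.3%, 94.4%, 93.6% and 94.3%.

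Calls between the lines came from 3 rules that differ in what they count as error. The edgeR quasi-likelihood test, which takes in the spread between tumors and adjusts over all windows by Benjamini-Hochberg, called 23 of the 1978 windows lower in 344SQR at an adjusted p under 0.05 (1.16%, against 0.133% of all windows tested). It called 0 higher (against 0% of all), with 53 higher (2.68%, against 0.760%) and 249 lower (12.6%, against 15.6%) at an unadjusted p under 0.05, while limma on logit levels called 0 in either direction, with 121 lower (6.12%, against 16.5%) and 10 higher (0.506%, against 0.853%) unadjusted. A site test that treats reads as independent, the design used for promoters in the study, called 846 windows lower (42.8%, against 50.4% of all) and 504 higher (25.5%, against 8.02%). The lines did not overlap in 572 windows lower in 344SQR (28.9%, against 43.9%) and in 116 higher (5.86%, against 6.03%). Among the 11204 promoter windows with at least 20 sites, edgeR called 62 lower (0.553%) and 0 higher. Of those promoter windows 28.8% lay lower and 7.88% higher without overlap, and the site test called 33.7%, against 68.3% of the 1978. The median number of qualified sites was 31 in the 1978 windows, 41 in those promoter windows and 5 in all windows. Its part in these shares was not tested.

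Of the 1350 windows called by the site test, 749 differed by less than 5 points (55.5%, against 26.8% of all windows so called), 118 were at least 10 points lower and 100 at least 10 points higher. With or without a call, 5.97% of the 1978 windows were at least 10 points lower (against 24.8% of all windows) and 5.06% at least 10 points higher (against 1.69%). With the tumor number as a block, edgeR called 337 windows lower and 159 higher, although no pairing by number is recorded. Calls over all windows were not counted for this setting or those that follow. The counts therefore do not show whether dense windows differ from the rest. Without the block, the edgeR count was 11 when reads were thinned to equal depth and 14 when adjusted over windows outside promoters. It was 13 at 5 kb or more from any TSS and 15 with promoters of comprehensive GENCODE. Leaving out a tumor gave 67 (without 344SQP tumor 1), 103 with 60 higher (344SQP tumor 2), 99 with 32 higher (344SQR tumor 1) or 15 (344SQR tumor 2), the lone tumor of a line being assumed to vary like the others. The directions of the site test also depended on single tumors, with 1100 lower and 225 higher without 344SQP tumor 1, 555 and 753 without 344SQP tumor 2, 723 and 687 without 344SQR tumor 1, and 1088 and 165 without 344SQR tumor 2.

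The 23 windows called by edgeR formed 20 runs and shared a shape. In 22 of them both resistant tumors were under 10% and in 18 under 5%, where parental tumors ranged from 8.17% to 42.8%. Their mean levels were 19.4% and 24.6% in 344SQP and 5.06% and 3.66% in 344SQR. Of the 23, 21 had a mean level of 5 to 20% over the tumors, a level at which 368 of the 1978 windows lay. Of the 6 sparse windows that edgeR called lower, 4 lay at this level too. In position the 23 were 13 intronic, 5 coding, 4 intergenic and 1 untranslated, and 10 overlapped a promoter of comprehensive GENCODE or RefSeq. With those annotations' promoters left out, edgeR called 13 windows. On chromosome 18, left out of the named windows, exon 10 of Nrg2 was called, with 9.56% and 13.6% against 0.992% and 1.31% (edgeR adjusted p = 0.00323). Read calls on the first 4 Mb of chromosome Y per 1000000 autosomal calls were 23.0 and 28.3 in 344SQP and 9.12 and 9.14 in 344SQR. Over the whole of that chromosome they were 413 and 257 against 563 and 180, with the lines overlapping, and their part in these differences was not tested.

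The smallest adjusted p was in intron 6 of Zmiz1, a coregulator of the PIAS-like family that acts with the androgen receptor and Notch1 (chr14:25607001-25608000). Its 112 sites, each read 37 to 229 times, averaged 11.1% and 16.7% in 344SQP against 1.76% and 1.50% in 344SQR. Both parental tumors were above both resistant ones, and 111 of the 112 sites had the lower line mean in 344SQR. The line means of 13.9% ± 3.94 and 1.63% ± 0.186 (SD, n = 2) differed by −12.3 points, with an edgeR log2 odds ratio of −3.18 (SE 0.26, adjusted p = 0.00143). The touching window had 23.8% and 28.1% against 3.28% and 1.95% and was called too (edgeR adjusted p = 0.00165). Both windows overlapped promoters of the other annotations. Windows named for their calls or differences were chosen by these same values, so that counts of their sites describe them and add no test.

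Cabin1, an inhibitor of calcineurin that also binds the histone chaperone Hira, carried another pair of touching windows, in intron 29. In 1 of them methylation was 17.002% and 25.7% in 344SQP against 1.75% and 1.69% in 344SQR over 23 sites, all of them lower in both resistant tumors than in both parental ones. The other had 13.1% and 23.0% against 1.80% and 1.54%, and edgeR gave adjusted p = 0.00522 and 0.00642. Both of these windows overlapped promoters of comprehensive GENCODE.

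Bmp2 encodes a bone morphogenetic protein, a secreted ligand of the TGF-beta superfamily, and the window over its exon 2 (chr2:133554001-133555000) lay 2.34 kb downstream of the TSS. Over 48 sites, each read 27 to 201 times, methylation was 17.7% and 24.4% in 344SQP and 2.54% and 2.22% in 344SQR. The parental tumors were both high, the resistant tumors both near the floor, and 43 of the 48 sites separated the lines. The line means of 21.1% ± 4.69 and 2.38% ± 0.227 (SD, n = 2) gave a log2 odds ratio of −3.31 (SE 0.36, edgeR adjusted p = 0.00585). The window just before it, over the end of exon 1, had 22.3% and 27.2% against 10.7% and 5.55%, without overlap, and did not pass (edgeR adjusted p = 0.139).

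Foxf2, a forkhead factor of the mesenchyme around gut and lung, had the lowest log2 odds ratio of these, −4.05 (SE 0.44, edgeR adjusted p = 0.00585), in its intron 1 (chr13:31629001-31630000). The 38 sites averaged 21.7% and 36.4% in 344SQP and 1.53% and 4.08% in 344SQR. All 38 sites were lower in both resistant tumors than in both parental ones. No promoter of the other annotations overlapped this window or that of Bmp2.

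The sequences of these windows are shown because their methylation was almost absent in the resistant tumors. Each is the 250 bases of the window with the most qualified sites, read 5′ to 3′ on the plus strand of GRCm38/mm10. Capitals mark CpGs with a qualified site on either strand, and a lone capital at an end belongs to a CpG divided by that end. They are Zmiz1 at chr14:25607424-25607673, Bmp2 at chr2:133554466-133554715 and Foxf2 at chr13:31629041-31629290.
Zmiz1: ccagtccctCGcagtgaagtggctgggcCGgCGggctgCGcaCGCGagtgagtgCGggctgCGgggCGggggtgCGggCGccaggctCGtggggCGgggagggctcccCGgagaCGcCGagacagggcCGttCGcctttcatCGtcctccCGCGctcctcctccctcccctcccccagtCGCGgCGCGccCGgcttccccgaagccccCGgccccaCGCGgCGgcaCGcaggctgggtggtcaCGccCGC
Bmp2: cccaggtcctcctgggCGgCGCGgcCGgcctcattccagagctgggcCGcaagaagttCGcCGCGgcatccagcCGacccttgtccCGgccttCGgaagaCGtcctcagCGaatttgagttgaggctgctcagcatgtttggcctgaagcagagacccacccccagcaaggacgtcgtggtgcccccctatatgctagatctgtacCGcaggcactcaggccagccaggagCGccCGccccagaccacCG
Foxf2: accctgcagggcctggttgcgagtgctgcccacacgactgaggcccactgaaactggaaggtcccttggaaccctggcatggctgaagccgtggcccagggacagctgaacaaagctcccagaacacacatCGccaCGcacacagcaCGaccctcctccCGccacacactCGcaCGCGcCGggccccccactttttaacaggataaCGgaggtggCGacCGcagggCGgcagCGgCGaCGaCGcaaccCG
Within these stretches the means were 8.94%, 11.6%, 1.80% and 1.35% in Zmiz1 and 15.7%, 24.9%, 2.15% and 2.39% in Bmp2. Marked CpGs were spread over the whole stretch in Zmiz1 and crowded at the end in Foxf2.

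Further windows with an edgeR adjusted p under 0.05 had the same order of tumors. Agap3, an Arf GTPase-activating protein, had 15.4% and 18.1% against 3.30% and 2.73% (chr5:24475001-24476000, 36 of 38 sites in coding exons). Prdm11, of the PR-domain family, had 12.0% and 13.7% against 1.40% and 1.84% in intron 1 (chr2:93015001-93016000). Auts2, a partner of Polycomb complexes in neurons, had 10.7% and 11.3% against 2.57% and 2.50% in intron 1 (chr5:131537001-131538000). All of these were below 20% in the parental tumors and below 5% in the resistant ones, with edgeR adjusted p of 0.00763, 0.00906 and 0.00946. The window of Prdm11 overlapped a promoter of RefSeq, that of Auts2 a promoter of comprehensive GENCODE and that of Agap3 neither.

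The homeobox gene Meis2 had 22.7% and 29.9% against 3.94% and 1.64% at exon 2 (chr2:116063001-116064000, edgeR adjusted p = 0.0124). Dlx3, a homeobox factor of skin and placenta, had 13.5% and 20.6% against 3.78% and 2.09% around exon 2 (chr11:95121001-95122000, edgeR adjusted p = 0.0162). Between genes, 38.7 kb downstream of Socs3, an inhibitor of cytokine receptor signalling, 36 sites averaged 33.8% and 42.8% against 9.79% and 8.18% (chr11:117930001-117931000, edgeR adjusted p = 0.0114). That window had the highest parental levels of the 22 that ended under 10%, and its lines were 29.3 points apart. The window of Meis2 overlapped promoters of both comprehensive GENCODE and RefSeq, and those of Dlx3 and near Socs3 overlapped neither.

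The window in intron 1 of the noncoding A330033J07Rik, 33.7 kb upstream of Id4, an inhibitor of basic helix-loop-helix factors, had 29.5% and 34.6% against 6.07% and 3.65% (chr13:48227001-48228000, edgeR adjusted p = 0.0196). Other called windows, named after their values were seen, lay upstream of the Wnt effector Lef1, with 23.6% and 19.5% against 3.41% and 6.33%, and upstream of the zinc finger gene Sp8, with 12.0% and 19.9% against 4.13% and 3.88%. The neural zinc finger gene Zic5 was near the lower limit, with 8.64% and 8.75% against 2.997% and 2.31%. These too had no overlap between lines. The window upstream of Id4 overlapped a promoter of RefSeq, and those of Lef1, Sp8 and Zic5 overlapped no promoter of the other annotations.

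A single called window stood apart by its level: exon 2 of Zbtb7a, which encodes a POZ-domain zinc finger repressor (chr10:81144001-81145000). Its 25 sites, all coding and each read 21 to 238 times, averaged 87.3% and 82.1% in 344SQP and 44.9% and 20.8% in 344SQR. All 25 sites were lower in both resistant tumors than in both parental ones, although the resistant tumors differed from each other. The line means of 84.7% ± 3.69 and 32.9% ± 17.01 (SD, n = 2) differed by −51.8 points (edgeR log2 odds ratio −3.44, SE 0.55, adjusted p = 0.0478).

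Other large differences with no overlap between lines did not pass edgeR. Exon 6 of Mmp24, a membrane-type matrix metalloproteinase, had 83.9% and 85.8% against 53.2% and 33.8% (chr2:155810001-155811000, adjusted p = 0.0935). Rin1, a Ras effector that activates Rab5, had 46.0% and 54.3% against 24.7% and 14.95% (chr19:5052001-5053000, adjusted p = 0.0935). Tmem119, a membrane protein of bone cells and microglia, had 85.9% and 75.2% against 65.2% and 42.0% (chr5:113795001-113796000, adjusted p = 0.170). In Mmp24, Rin1 and Tmem119, as in Zbtb7a, 344SQR tumor 2 was the lowest of all. Zfhx3, a homeobox and zinc finger factor, had 40.1% and 65.8% against 26.6% and 31.1% in intron 6 (chr8:108696001-108697000, adjusted p = 0.181).

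Of the 116 windows that lay higher in 344SQR without overlap, 70 (60.3%) had the tumors numbered 2 above those numbered 1 in both lines, against 57.0% of the 1978. The largest difference was between genes, 91.4 kb downstream of Zfp36l2, which encodes a protein of AU-rich mRNA decay (chr17:84096001-84097000). Its 29 sites, each read 66 to 227 times, averaged 17.01% and 36.8% in 344SQP and 38.5% and 68.5% in 344SQR. The lines did not overlap, but 344SQP tumor 2 lay just below 344SQR tumor 1. The line means of 26.9% ± 14.0 and 53.5% ± 21.2 (SD, n = 2) differed by 26.6 points, from 11.6 to 41.6 when a tumor was left out, and edgeR gave adjusted p = 0.220.

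Amh, the anti-Müllerian hormone and a ligand of the TGF-beta superfamily, had 16.8% and 38.4% against 38.8% and 63.6% over 37 coding sites of exon 5 (chr10:80807001-80808000). Heyl, an effector of Notch signalling, had 16.1% and 23.4% against 32.8% and 53.3% in intron 1 (chr4:123239001-123240000). Prrx1, a homeobox factor of mesenchyme, had 12.1% and 17.9% against 24.7% and 44.3% at exon 1 (chr1:163312001-163313000). The edgeR adjusted p of the 10 higher windows named by the rule lay between 0.161 and 0.355.

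Similar values were found at exon 1 of Whrn, the scaffold protein whirlin of hair cells, with 17.2% and 32.7% against 33.6% and 53.2% (chr4:63494001-63495000). Slc12a5, the neuronal potassium-chloride cotransporter Kcc2, had 16.5% and 27.0% against 29.8% and 49.8% at its last exons (chr2:164997001-164998000). Exon 1 of Extl1, an exostosin-like glycosyltransferase, had 9.12% and 19.8% against 23.2% and 43.7% (chr4:134371001-134372000). The last exon of Irx3os, the antisense neighbour of the homeobox gene Irx3, had 30.2% and 47.7% against 48.2% and 69.1% (chr8:91805001-91806000). In all but 2 of the 10, Crocc and 1700023F06Rik, the tumors numbered 2 were the higher ones by more than 5 points in both lines.

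Crocc, which encodes the ciliary rootlet protein rootletin, held windows of both directions. Around exon 27 (chr4:141025001-141026000) methylation was 58.7% and 68.0% in 344SQP and 82.5% and 83.0% in 344SQR. Around exons 18 to 19 (chr4:141034001-141035000) it was 72.2% and 65.6% against 49.2% and 28.5%. The lines were apart in both places and in opposite order, and edgeR adjusted p was 0.184 and 0.161. 1700023F06Rik had 29.9% and 27.0% against 56.5% and 47.1% near its last exons (chr11:103199001-103200000), and its difference of 23.3 points became 14.2 over sites with at least 50 reads.

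The sequences of Zbtb7a (chr10:81144738-81144987), whose methylation fell the most of the called windows, and of the intergenic window near Zfp36l2 (chr17:84096564-84096813), which had the largest difference in the other direction, are given in the same way.
Zbtb7a: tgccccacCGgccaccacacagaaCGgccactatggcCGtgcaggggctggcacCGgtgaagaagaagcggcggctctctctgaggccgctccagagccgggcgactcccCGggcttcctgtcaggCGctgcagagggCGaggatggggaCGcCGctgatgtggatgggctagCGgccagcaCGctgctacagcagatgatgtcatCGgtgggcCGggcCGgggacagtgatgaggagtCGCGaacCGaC
Zfp36l2: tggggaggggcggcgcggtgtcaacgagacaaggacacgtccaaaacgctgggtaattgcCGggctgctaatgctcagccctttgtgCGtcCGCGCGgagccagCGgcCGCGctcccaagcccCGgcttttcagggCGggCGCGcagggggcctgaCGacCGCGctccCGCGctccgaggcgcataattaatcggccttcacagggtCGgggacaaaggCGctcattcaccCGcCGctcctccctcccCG
In single CpGs of these windows, Wilson 95% intervals give the precision, and they cover counting error only, since reads are not counted molecules. The cytosine with the largest line difference in each window was taken, so that its values are wider apart than those of the window. The minus-strand cytosine of Zbtb7a at position 81144945 of chromosome 10 had a methylation of 93.2% in 344SQP tumor 1 (interval 81.8 to 97.7, 44 reads) and 93.1% in tumor 2 (83.6 to 97.3, 58 reads). In 344SQR it was 53.3% in tumor 1 (42.2 to 64.2, 75 reads) and 1.49% in tumor 2 (0.264 to 7.98, 67 reads). The resistant tumors thus differed from each other at this CpG beyond counting error. The plus-strand cytosine near Zfp36l2 at position 84096720 of chromosome 17 had 7.58% in 344SQP tumor 1 (3.28 to 16.5, 66 reads) and 15.9% in tumor 2 (9.14 to 26.3, 69 reads). In 344SQR it had 39.2% in tumor 1 (31.3 to 47.8, 130 reads) and 72.8% in tumor 2 (63.5 to 80.5, 103 reads).

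Across the 1978 windows, tumors of a line differed more than the lines did. The tumors numbered 2 were higher in both lines in 1128 windows (57.0%) and lower in both in 350 (17.7%). Among all windows 25.1% were higher and 39.0% lower, among sparse ones 17.2% and 47.6%, and among promoter windows with at least 20 sites 44.4% and 17.6%. By at least 10 points in both lines they were higher in 440 windows (22.2%) and lower in 24 (1.21%), against 8.36% and 0.0982% of those promoter windows, 3.79% and 9.02% of the sparse ones and 5.58% and 6.44% of all. By any amount, the share higher in both lines was 88.9% among the dense windows at 20 to 40%, 88.2% at 40 to 60% and 28.5% under 5%. Read calls on chromosome X per 1000000 autosomal calls were 16208.5, 12972.5, 15378.2 and 11917.8, so that they too went with the number of the tumor, and their part in these values was not tested.

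The largest difference between the tumors numbered 2 and 1 was in exon 4 of Sipa1, which encodes a GTPase-activating protein for Rap (chr19:5660001-5661000). Its 21 coding sites averaged 26.1% and 76.5% in 344SQP and 30.5% and 67.7% in 344SQR. Tumors numbered 1 were low and tumors numbered 2 high, and the lines overlapped (means 51.3% ± 35.6 and 49.1% ± 26.4, SD, n = 2). Tbr1, a T-box factor of the cerebral cortex, had 23.3% and 62.2% against 32.8% and 75.2% in its last exon (chr2:61812001-61813000). Hspa2, a testis-enriched Hsp70, had 31.8% and 75.7% against 44.4% and 70.0% (chr12:76405001-76406000). Epn3, an epsin of endocytosis, had 38.3% and 72.6% against 44.0% and 78.3% (chr11:94491001-94492000).

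The stretch of Sipa1 is chr19:5660723-5660972, shown as the site of the widest split between tumors of a line, and that of Celf2 is chr2:6872562-6872811, shown as a dense stretch that stayed under 2% in all the tumors.
Sipa1: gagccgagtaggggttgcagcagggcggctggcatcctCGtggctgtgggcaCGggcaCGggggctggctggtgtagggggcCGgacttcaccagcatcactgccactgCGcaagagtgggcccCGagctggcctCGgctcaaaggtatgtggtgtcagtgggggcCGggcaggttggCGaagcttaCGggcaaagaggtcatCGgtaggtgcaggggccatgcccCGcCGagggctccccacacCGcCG
Celf2: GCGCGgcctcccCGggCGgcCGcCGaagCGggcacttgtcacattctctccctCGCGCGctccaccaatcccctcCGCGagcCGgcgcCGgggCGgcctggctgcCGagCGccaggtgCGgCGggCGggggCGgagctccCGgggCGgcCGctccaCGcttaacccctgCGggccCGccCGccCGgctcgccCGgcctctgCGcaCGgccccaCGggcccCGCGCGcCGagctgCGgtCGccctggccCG
The Celf2 stretch holds 42 CpGs with 66 qualified sites, and the Sipa1 stretch 17 CpGs with 19 qualified sites.

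Runs of 3 touching windows let levels be followed along a gene. In the last exon of the zinc finger gene Zfp316 (chr5:143253001-143256000) the first window, with the most qualified sites of all (166), had 47.1% and 78.6% against 50.3% and 84.4%. The next windows had 60.03% and 83.6% against 59.4% and 89.1%, and 73.8% and 90.1% against 72.0% and 93.0%. The tumors numbered 2 were high in each window, by less in the windows with a higher level.

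Sp8, a zinc finger factor of limb outgrowth, had 22.01% and 37.7% against 21.8% and 36.1% around exon 2 (chr12:118847001-118848000). In exon 3 the next windows had 36.5% and 66.0% against 46.5% and 75.8%, and 37.2% and 69.2% against 45.7% and 78.2%. In exon 1 of Mn1, a transcriptional coregulator, the order differed by window (chr5:111418001-111421000). Its first window had 36.7% and 52.2% against 41.3% and 53.5%, its second 71.3% and 68.4% against 73.7% and 67.3%, and its last 51.6% and 49.1% against 48.7% and 39.9%.

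Among the other windows with the most sites, the one inside the span of Tcf20, a transcriptional coregulator, had 144 sites in no basic transcript at 6.72%, 9.42%, 8.13% and 13.6% (chr15:82963001-82964000). Exon 3 of Chadl, a leucine-rich repeat protein of cartilage, had 140 sites at 5.35%, 4.97%, 4.16% and 3.74% (chr15:81694001-81695000). Lncppara had 140 sites at 1.41%, 1.35%, 1.19% and 1.26% (chr15:85671001-85672000).

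Windows were also grouped by the family of the nearest protein-coding gene, and the lists were compared with the values over the 1978 windows (median difference −0.300 points) and over all windows (−2.54 points). Shares without overlap stand against 28.9% lower and 5.86% higher of the 1978 windows and 43.9% and 6.03% of all windows, and edgeR calls against 1.16% and 0.133%. No list was tested against the others. Examples from the lists were chosen after their values were seen. Homeobox factors outside the Hox clusters were the largest group, with 149 windows at 85 genes and means of 25.3%, 39.2%, 27.4% and 40.3%. Their median difference was 1.51 points, 21 windows lay lower (14.1%) and 8 higher (5.37%) in 344SQR without overlap, and edgeR called 2 (1.34%, Meis2 and Dlx3). In 85.2% of them the tumors numbered 2 were higher in both lines. The same held in 57.0% of the 1978 windows, 25.1% of all windows and 88.9% of the dense windows at a level of 20 to 40%.

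Sox, Fox, Gata, Tbx and Pax factors had 104 windows at 50 genes, with 23.9%, 35.6%, 25.6% and 36.8%, a median difference of 0.287 points, 19 lower (18.3%) and 5 higher (4.81%) without overlap and 1 call (0.962%, Foxf2). The tumors numbered 2 were higher in both lines in 82.7%, again against 57.0% of the 1978 windows and 25.1% of all. Of the genes nearest to 5 or more windows, Pax2 had 8, a factor of kidney and ear, at a mean of 21.9%, 33.0%, 24.3% and 31.7%, with 6 of the 8 higher in the tumors numbered 2 of both lines. Otp, a homeobox factor of the hypothalamus, had 6, at 26.8%, 41.9%, 27.9% and 45.6%, and all of these were higher in those tumors. Uncx, a homeobox factor of the somites, had 5 at 21.3%, 32.0%, 24.8% and 33.1%, again all higher there. Lhx5 and Neurod2, factors of neurons, and Tnrc18 had 5 each, of which 3, 4 and 3 were higher there, and 1700001O22Rik had 6, of which 2 were.

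The Hox clusters, which pattern the body axis, held 18 windows at 31.0%, 42.3%, 29.9% and 36.4%. Their median difference was −2.31 points, and 4 windows lay lower (22.2%) and 0 higher in 344SQR without overlap. Exon 2 of Hoxb2 was ordered by tumor number, with 33.1% and 52.3% against 34.2% and 53.4%. A window with a coding exon of Hoxc5 (chr15:102982001-102983000) had 28.7% and 50.3% against 18.1% and 26.7%, with both resistant tumors below both parental ones.

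Genes of the BMP and TGF-beta pathway had 32 windows at 24 genes, with 21.6%, 25.0%, 20.1% and 22.8%. Of these, 12 lay lower (37.5%) and 3 higher (9.38%) in 344SQR without overlap, edgeR called 2 (6.25%, Bmp2 and the window upstream of Id4), and the median difference was −0.454 points. Among ligands, exon 1 of Bmp3 had 17.6% and 19.995% against 10.5% and 17.8%, exon 3 of Bmp4 had 23.3% and 26.7% against 22.7% and 20.4%, and exon 1 of Bmp6 had 16.1% and 21.0% against 13.5% and 28.6%. Exon 2 of Gdf7 had 14.5% and 27.0% against 23.6% and 38.0%, and exon 1 of Tgfb1 was nearly unmethylated, at 1.26%, 1.28%, 1.07% and 1.06%. The lines overlapped at Bmp3, Bmp6 and Gdf7 and were apart by a few points or less at Bmp4 and Tgfb1.

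Of the antagonists of BMP, Noggin (Nog) had neighbouring windows downstream of the gene with unlike values. The nearer (chr11:89299001-89300000) had 18.8% and 14.3% against 6.96% and 5.61%, and the farther (chr11:89298001-89299000) 28.9% and 33.9% against 32.2% and 43.5%. Among receptors and signal transducers, intron 1 of Acvr2b had 1.97%, 1.20%, 1.16% and 1.17%, and intron 1 of Smad1 had 2.29%, 1.31%, 1.46% and 1.47%. The inhibitory Smad6 was unmethylated in exon 1 (1.94%, 1.69%, 1.20% and 1.40%) and methylated in exon 4 (96.1%, 97.3%, 96.5% and 93.7%). Among targets, Id1 had 39.2% and 73.1% against 49.1% and 78.4% in a window 11.8 kb upstream, and Id3 had 1.51%, 1.04%, 0.863% and 0.719% in its exons. No window lay within 50 kb of the TSS of Bmp7, the nearest being an intergenic window 212 kb away, whose nearest protein-coding gene, Tfap2c, was 178 kb off.

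Wnt pathway genes had 28 windows at 27.6%, 34.3%, 29.1% and 32.3%, with 9 lower (32.1%) and 1 higher (3.57%) in 344SQR without overlap, a median difference of −0.337 points and 1 edgeR call (3.57%, near Lef1). The receptor gene Fzd1 had 32.8% and 40.5% against 19.4% and 20.6%, and the ligand gene Wnt3a had 16.0% and 19.96% against 21.96% and 34.2% in intron 2. Fzd2 had 38.1% and 76.6% against 50.2% and 78.5%, ordered by the number of the tumor. Axin2, a feedback inhibitor of the pathway, was at 1.996%, 2.20%, 1.40% and 1.28% in intron 1. The lines were apart at Fzd1, Wnt3a and Axin2 and overlapped at Fzd2.

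Imprinted genes, of which only the maternal or only the paternal copy is active, had 13 windows at 9 genes, with 48.3%, 57.6%, 50.1% and 58.6% and a median difference of 1.02 points. The lines did not overlap in 1 of them (7.69%, lower in 344SQR), at exon 1 of Gnas (60.9% and 55.9% against 52.0% and 51.3%). Intron 1 of Grb10, an adaptor that restrains insulin signalling, had 71.2% and 86.3% against 72.6% and 86.9% over 76 sites. Intron 1 of the growth factor gene Igf2 had 30.1% and 53.4% against 36.9% and 61.7%. A window inside the span of Plagl1 but in no basic transcript had the opposite order, 67.2% and 48.7% against 59.6% and 36.2%, with the tumors numbered 2 lower.

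C2H2 zinc finger genes, listed by symbols such as Zfp, Zscan, Zkscan and Zbtb, so that Sp8 and Zic5 are not among them, had 67 windows at 52.5%, 57.0%, 52.5% and 56.1%, with 19 lower (28.4%) and 5 higher (7.46%) without overlap, a median difference of −0.241 points and 1 edgeR call (1.49%, Zbtb7a). Potassium and calcium channel genes had 19 windows, 2 lower (10.5%) and 1 higher (5.26%) without overlap, with a median difference of −1.53 points. Collagen genes had 4 windows, 2 of them lower without overlap (50%), and olfactory and vomeronasal receptors 1, whose lines overlapped. The clustered protocadherins had 0 windows.

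Among the windows farthest from a TSS of any gene in the basic annotation, levels varied. Intron 7 of Gucy1a2, a guanylate cyclase subunit, had 89.3% and 87.1% against 83.6% and 69.9% at 356 kb from its TSS. Intron 7 of Sh3gl2, an endophilin, had 22.8% and 39.7% against 26.6% and 36.5%. Rims1, a scaffold of the presynaptic active zone, had 27.4% and 37.2% against 23.3% and 43.0% over 109 sites. Exon 9 of Hivep1, a large zinc finger protein, had 98.4%, 98.0%, 98.1% and 98.0%. The lines were apart at Gucy1a2 and overlapped at Sh3gl2, Rims1 and Hivep1. The windows of Sh3gl2 and Hivep1 overlapped a promoter of comprehensive GENCODE, and that of Sh3gl2 also a promoter of RefSeq.

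In sequence, the windows lay between sparse and promoter windows. Their median GC content was 60.1% and their median CpG number 55, with an observed to expected CpG ratio of 0.647, against 61.4%, 70 and 0.762 in promoter windows with at least 20 sites and 49.9%, 18 and 0.294 in sparse windows. By the rule of a GC content over 50% and a ratio over 0.6, 59.3% of the windows were island-like, against 83.6% and 1.47%. Windows under 20% methylation were island-like in 69.6% and those at 80% or more in 25.5%.

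Short motifs were counted on both strands, matches of different motifs may share bases, and a match describes letters only. GGGCGG, the core of Sp1 sites, was in 78.5% of the windows and in 43.3% of all windows, in 87.3% of the windows under 20% and 57.5% of those at 80% or more, and in all 23 called by edgeR. CACGTG was in 20.7% (17.1% of all windows), GCATGCGC in 4.04% (3.25%) and AGGGGGCGC, part of the Ctcf motif, in 5.61% (2.05%). TGACGTCA, the cyclic AMP response element, was in 27 windows (1.37%, against 1.56% of all), 22 of them under 20% and 0 at 80% or more. CCGG, the site recognised by MspI, the enzyme usually used in RRBS, was in every window.

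Levels were also taken on either side of the site minimum. The 372 windows with 20 to 22 sites averaged 45.1%, 50.9%, 45.2% and 48.6%, and 559 windows outside promoters with 17 to 19 sites averaged 50.4%, 53.9%, 49.2% and 50.0%, which is higher in each tumor. The lines overlapped in the first set (difference −1.09 points, exact permutation p = 1) and not in the second (−2.51 points, p = 0.333), and the sets were not tested against each other.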

How the data were processed

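RRBS was measured in 4 tumors, 2 each of 344SQP and 344SQR. The submitters' processing notes name Trim Galore 0.4.1, cutadapt 1.9.1, Bowtie 1.1.2, Bismark and methylKit. The tables deposited by the authors give for each cytosine of a CpG its coverage, a read count, and the percent of reads methylated and unmethylated, on mm10. Methylated read counts were coverage times percent, rounded. Cytosines on the 19 autosomes covered by 20 reads or more in every tumor were placed in windows of 1000 bp. TSSs came from GENCODE vM21 basic. Comprehensive GENCODE and RefSeq GRCm38.p6 served as alternatives.

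Windows with at least 3 sites were tested on the whole table with a threshold of 0.05 after Benjamini-Hochberg adjustment, and 1978 are described. edgeR 4.0.16 (R 4.3.3) fitted methylated and unmethylated counts by quasi-likelihood and was tested on simulated data, and limma 3.58.1 fitted logit levels. The site test combined likelihood ratio p-values per site (not below 2.2e-16) by signed Stouffer z. Tumor means were compared by two-sided exact permutation tests. Python 3.11.15, numpy 2.4.6, scipy 1.17.1 and pandas 2.3.3 were used.

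Named windows, at most 1 per run and none on chromosome 18, were the 10 with the smallest edgeR adjusted p, the 10 lower and 10 higher with the largest difference without overlap, the 5 with the most sites, also among those under 5% and over 90% in all tumors, the 4 with the largest difference between tumors numbered 2 and 1, the 3 longest runs (ties broken afterwards by their sites) and any within 50 kb of the Bmp7 TSS. Lists followed gene symbols: Hox clusters, other homeobox factors, Sox, Fox, Gata, Tbx and Pax factors, C2H2 zinc finger genes, clustered protocadherins, imprinted genes, BMP and TGF-beta pathway, Wnt pathway, potassium and calcium channels, collagens, and olfactory and vomeronasal receptors. The windows and lists were chosen with earlier results of these data known. Alternatives changed the coverage and site minimum, window position, strand handling, promoter definition, depth, test and adjustment, and left out each tumor. Sex chromosomes were left out of all tests.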

Additional observations from a re-analysis of the deposited data

Results flagged for a closer look

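Chromosome Y was outside all comparisons, and the hosts were female. CpG read calls were nevertheless listed on its first 4 Mb, a limit chosen after the data were seen. They numbered 2638 and 3862 in 344SQP tumors 1 and 2, or 23.0 and 28.3 per 1000000 autosomal calls. In the 344SQR tumors they numbered 1441 and 1577, or 9.12 and 9.14 per 1000000. Both resistant tumors were below both parental tumors on this stretch. Over the whole chromosome the values were 413 and 257 in 344SQP and 563 and 180 in 344SQR, and the lines overlapped. Their part in the results was not tested.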

How the results depend on the processing

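Unless named here, the total of a count stayed within 1.5 times its value. Of the settings in this section, calls over all windows were counted for limma only. The mean difference of −0.388 points became 0.135 with at least 30 sites, −0.0820 at 50 reads, −0.542 at 10 reads, −1.19 with 15 sites, −2.35 with strands merged and −1.14 at 5 kb, and ranged from −3.60 to 2.83 when a tumor was left out. The edgeR count of 23 became 11 with reads thinned to equal depth, 14 adjusted over windows outside promoters, 13 at 5 kb from any TSS, 15 to 103 when a tumor was left out, and 0 with limma. With promoters of comprehensive GENCODE it became 15, and 13 with those of all 3 annotations left out, both settings chosen after seeing the data. Fewer windows were counted in the 5 kb setting and in the last 2. For the other changes the cause was not tested.

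The site test's 1350 calls became 2079 with at least 15 sites, 705 with 30, 3323 with strands merged at 10 CpGs (each cytosine with at least 10 reads), 657 at 5 kb, 898 without promoters of all annotations and 218 when 10 points were also asked for. Leaving out a tumor gave totals of 1253 to 1410, but 555 to 1100 lower (846 with all) and 165 to 753 higher (504 with all), with more higher than lower without 344SQP tumor 2. Windows without overlap, 688 in all, became 1200, 348, 2181, 348 and 434 in the first 5 of these settings. The number of windows itself moved from 1978 to 3047, 1041, 4840, 893 and 1246.

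Tumors share a number across lines, and with 2 pairs nothing else is known of the pairing. With the number as a block, paired edgeR called 496 windows, 337 lower and 159 higher, and the Mantel-Haenszel test 1331. Differences within a number averaged 0.309 and −1.08 points. The difference between tumors numbered 2 and 1 correlated between the lines with r = 0.870 over the 1978 windows and 0.657 over all 73196, windows of the same libraries.

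For the 53 named windows, settings with all tumors gave 159 values, of which 151 moved by less than the spread between tumors and 5, in 3 windows, changed sign. With a tumor left out, sign changed in 14 of the 17 named windows whose lines overlap and in 0 of the other 36, whose sign cannot change that way. With 2 tumors per line the smallest exact permutation p is 0.333, a site at the coverage minimum has steps of 5 points, and the site test leaves out the spread between tumors.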
